A study of Mus musculus with 35 samples.

Results

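The granular layer of mouse back skin was compared with the fast-cycling fraction of the spinous layer beneath it. The 3 granular libraries and the 3 spinous nLRC libraries are 6 of the 35 libraries of the series, taken by their sample titles. Both groups were sorted from back skin epidermis of C57BL/6J mice, 2 months old, of the genotype K5-tTA/pTRE H2B-GFP. All of them received doxycycline for 2 weeks, and the other 12 back skin libraries used below carry the same alleles and treatment. In these mice the keratin 5 promoter drives a histone-GFP fusion until doxycycline shuts it off, and the label is then diluted with each division. Spinous nLRC are spinous cells that had lost the label (called fast-cycling), spinous LRC had kept it (slow-cycling), and the granular libraries were sorted with no split by label. The label depends on the keratin 5 promoter, so a cell that never made the fusion is as dark as one that diluted it. The labels do not name the antibodies of the sort. They also do not say whether replicates are separate animals, and if they are not, the p-values cover only technical spread among these libraries.

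Epidermis renews from a basal layer that carries keratins 5 and 14 and integrins. Cells that leave it enter the spinous layer, where keratins 1 and 10 replace the basal pair, and then the granular layer, where filaggrin, involucrin and small proline-rich proteins are laid down for the cornified envelope and where lamellar lipids, tight junctions and a protease cascade prepare the barrier. Sebaceous glands, attached to hair follicles in the same skin, hold sebocytes, whose lipid program runs under the nuclear receptor PPARγ, and a keratin 79-positive duct that joins the gland to the upper follicle.

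Gene reads per library numbered 14363365 to 19392109 in the granular group and 12056704 to 16134301 in the spinous nLRC group. The use of strand in counting is not given in the sources used here, and reads of overlapping genes cannot be told apart. Reads per gene were scaled to library size (CPM, with TMM factors), and differences are given as log2 fold changes, granular minus spinous nLRC, so positive values are higher in the granular layer. Mitochondrial genes took 1.70 to 2.35% of reads in granular and 2.36 to 4.35% in spinous nLRC libraries, and the median share of intron reads was 31.2 to 35.3% and 24.3 to 34.8%. In the fit of all 18 back skin libraries, 2350 of 16574 genes passed the test (14.2%, edgeR quasi-likelihood test, adjusted p under 0.05). Of these, 1105 were higher in the granular layer (6.67% of genes tested) and 1245 lower (7.51%). A difference of more than 4-fold was found in 302 of the higher and 448 of the lower genes. The groups did not overlap in 2330 of the 2350, against 39.6% of all genes tested. The number called was 1218 without spinous nLRC 2, 1440 without granular 1, 1514 without granular 3 and 4043 without bulge 2, a library outside the comparison with 9785944 reads, that stands apart from its group and has the smallest TMM factor. Each gene list below is given by its number of genes higher and lower, and in parentheses by its median and by the number in the larger direction (the higher one where they tie) wherever leaving out 1 library, the replicate block or limma on TPM moved that number by over 1.5 times. By limma on log2(TPM + 1), 7.62% of genes were called, 3.01% higher and 4.61% lower.

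**Figure D1:**
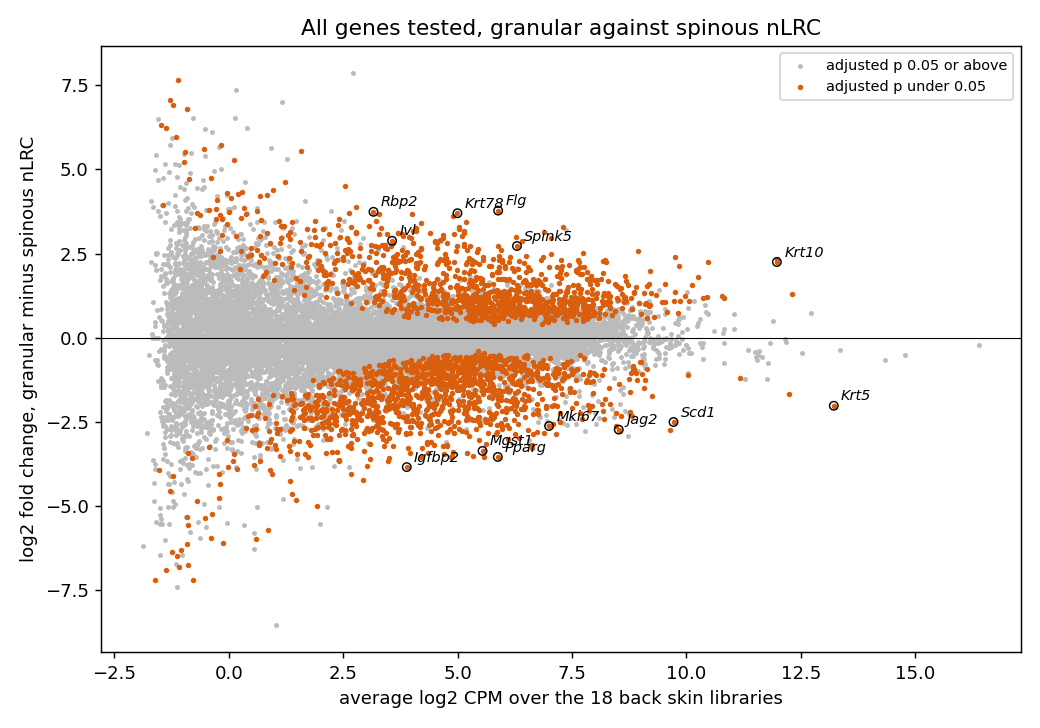
Log2 fold change, granular minus spinous nLRC, against the average log2 CPM over the 18 back skin libraries, 1 point per gene tested (16574) and orange for the 2350 with an edgeR adjusted p under 0.05. Named genes are circled: keratinocyte genes such as Flg, Krt78 and Krt10 lie above 0, and Igfbp2, Pparg, Mgst1 and Krt5 below.

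The layer markers were read first, since they check the sort (Krt1, Krt10, Krt5, Krt14, Lor and Flg2 are outside the rule by which genes were named). Krt10, the main suprabasal type I keratin (chromosome 11, 99385254 to 99389364, GENCODE M21, build mm10, as for all positions here), stood at 10021, 8392 and 7882 CPM in the granular libraries and 2579, 1395 and 1559 in spinous nLRC. All granular values lie above all spinous nLRC values, by 2.25 ± 0.57 (SE; edgeR adjusted p = 0.0131). Spinous LRC held 10532, 11039 and 7404 CPM and basal nLRC 1388, 1616 and 1439, so the spinous nLRC libraries sit in and near the range of the basal ones and below the other spinous group (-2.39 ± 0.57 SE, edgeR adjusted p = 0.00893 for nLRC minus LRC). Krt1, its type II partner, gave the same order, with 4176, 2721 and 2685 CPM in granular, 1072, 491 and 467 in spinous nLRC and 4321, 3892 and 2397 in spinous LRC libraries. For both keratins the granular and spinous LRC values overlap. Krt5, the basal type II keratin, was at 1352, 1421 and 2314 CPM in granular, 6738, 5456 and 8525 in spinous nLRC and 17435, 17903 and 15797 in basal nLRC libraries. The granular level was lower than the spinous nLRC level, at -2.03 ± 0.40 (SE; edgeR adjusted p = 0.00284). Krt14 was at 1406, 1784 and 1572 CPM in granular and 4704, 4974 and 5497 in spinous nLRC libraries, a difference of -1.67 ± 0.32 (SE; edgeR adjusted p = 0.00251). By these markers the libraries labelled spinous nLRC lay below the basal ones in basal keratins and did not stand above them in Krt1 and Krt10, so these keratins meet the spinous label only in part. Of the lists below, summed CPM of the suprabasin cluster was 487 to 576 in spinous nLRC and 389 to 439 in basal nLRC. Barrier lipid and serine protease lists also lay above basal nLRC. Envelope, suprabasal keratin, desmosome and tight junction lists overlapped it. Spinous nLRC against basal was not tested. On leaving out 1 library (edgeR adjusted p in parentheses), the test was no longer passed by Krt10 without spinous nLRC 2 or 3 (0.0641 to 0.0803) and Krt1 without granular 1 or spinous nLRC 2 or 3 (0.0701 to 0.103). By limma on the TPM values, log2(TPM + 1), Krt10 and Krt1 did not pass (adjusted p 0.0734 to 0.0782).

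Granular identity was clear in some genes and spread widely in others. Lor (loricrin, a main envelope protein) had 39.3, 83.9 and 5.76 CPM in granular and 8.62, 9.97 and 1.10 in spinous nLRC libraries. Flg2, a filaggrin relative, had 469.7, 1027 and 123 CPM in granular and 115, 51.6 and 8.65 in spinous nLRC libraries. The groups overlap for Lor and not for Flg2, and neither passed the test (edgeR adjusted p = 0.166 and 0.137), but both did with the replicate number as a block (0.0168 and 0.000356). In both genes granular 3 and spinous nLRC 3 are the lowest of their groups. Lce3b to Lce3f, late envelope genes, had no read in any library of either group.

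**Figure D2:**
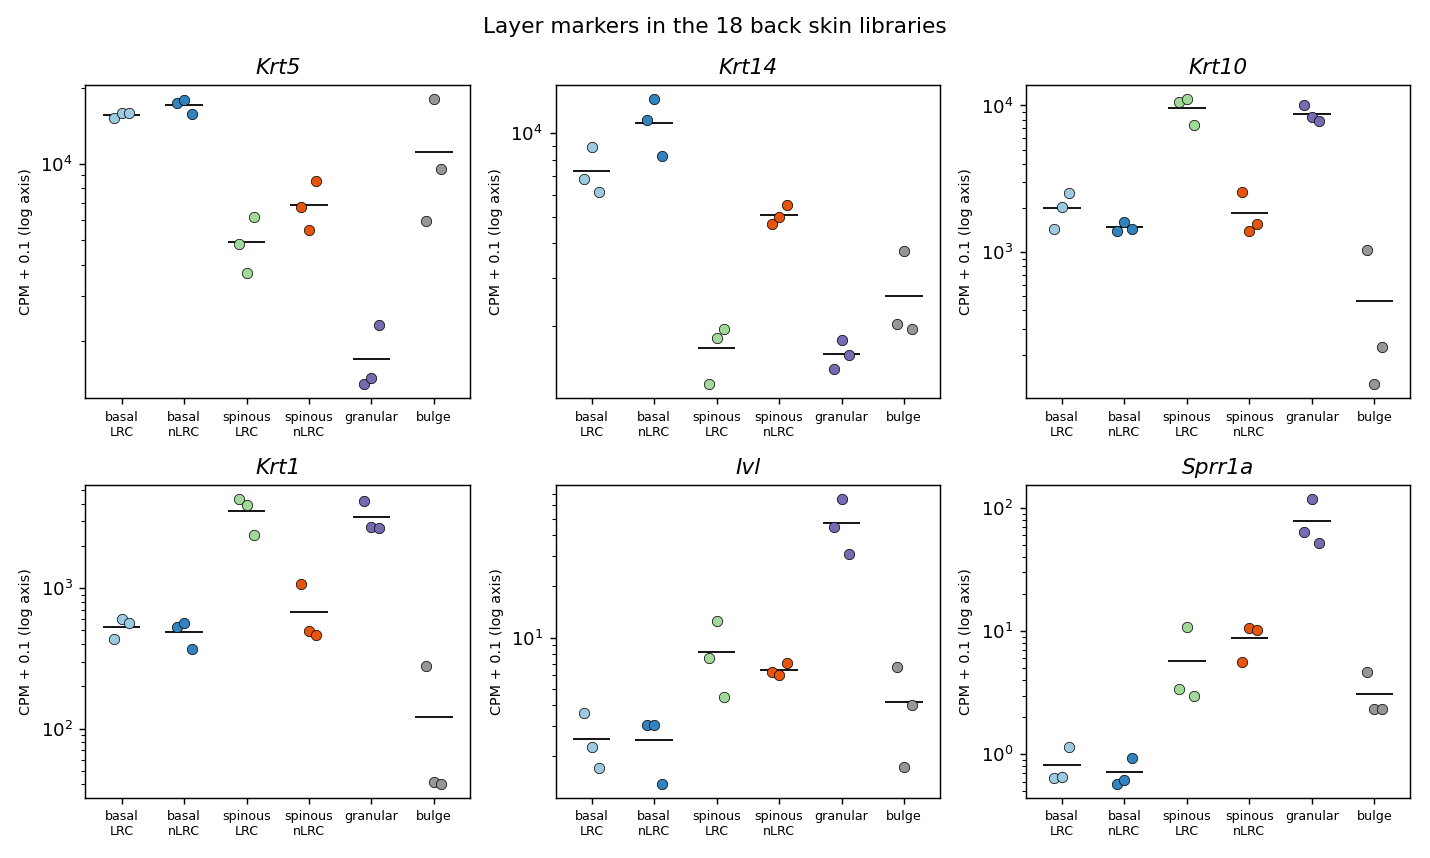
CPM + 0.1 (log axis) of Krt5, Krt14, Krt10, Krt1, Ivl and Sprr1a in the 18 back skin libraries, 1 point per library (n = 3 per group) with a bar at the group mean. Krt1 and Krt10 of spinous nLRC lie near the basal groups and below granular and spinous LRC, while Ivl and Sprr1a are highest in the granular group.

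Cornified envelope genes were higher in the granular layer. Of 41 listed genes in the tables, 23 were tested and 11 were higher and 0 lower, with a median of 2.57 against -0.04 over all genes. For granular minus spinous LRC, 3 were higher and 0 lower (median 1.79), with 0.977% of all genes called in that contrast. Flg (filaggrin, chromosome 3, 93273523 to 93293686), which bundles keratin filaments, was the largest rise among genes averaging 3 or more in log2 CPM, at 138, 455 and 60.7 CPM in granular and 30.2, 12.4 and 4.75 in spinous nLRC libraries. The groups do not overlap, which the rule for naming the largest rises required. Granular 2 was far above the other granular libraries, and the difference was 3.78 ± 1.13 (SE; edgeR adjusted p = 0.0329). Ivl (involucrin, an early envelope scaffold, chromosome 3, 92570902 to 92573735) had 44.5, 65.2 and 30.8 CPM against 6.19, 5.95 and 6.95. It rose by 2.88 ± 0.48 (SE; edgeR adjusted p = 0.000917), or 7.36-fold. Sprr1a (a small proline-rich cross-bridging protein, chromosome 3, 92483952 to 92485895) had 63.2, 118 and 52.0 CPM against 5.47, 10.5 and 10.2, a difference of 3.16 ± 0.49 (SE; edgeR adjusted p = 0.000565). Spinous LRC overlapped spinous nLRC in these genes, with 7.47, 12.3 and 4.40 CPM of Ivl and 3.28, 10.7 and 2.89 of Sprr1a, and granular minus spinous LRC was 2.54 ± 0.47 (SE; edgeR adjusted p = 0.0152) and 3.79 ± 0.51 (SE; edgeR adjusted p = 0.00162). Casp14 (a caspase that matures filaggrin) and Evpl (envoplakin) rose by 2.25 ± 0.29 (SE; edgeR adjusted p = 0.00015) and 1.68 ± 0.29 (SE; edgeR adjusted p = 0.00118). Unlike Ivl and Sprr1a, these had spinous LRC levels of 48.7, 79.8 and 49.2 CPM (Casp14) and 604, 509 and 419 CPM (Evpl), which overlap the granular levels of 88.4, 134 and 69.6 and 642, 604 and 553 CPM. The number higher was 7 without spinous nLRC 2 and 17 with the replicate block. Sprr and Lce genes have close copies, and how reads were shared among them is not given in the sources used here. The edgeR adjusted p rose above 0.05, to the values in parentheses, for Flg without granular 1 or 2 or spinous nLRC 2 or 3 (0.0513 to 0.154). The limma test on log2(TPM + 1) was not passed by Flg (adjusted p 0.0757).

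The promoters of Ivl and Sprr1a are shown because these genes were higher in granular libraries than in either spinous group, with the letters TGANTCA, the AP-1 motif, in capitals (RefSeq, build GRCm38.p6, 250 bases before the start and the first 30 after it, 5′ to 3′, both on the minus strand, chr3:92573706-92573985 and chr3:92485852-92486131).
Ivl: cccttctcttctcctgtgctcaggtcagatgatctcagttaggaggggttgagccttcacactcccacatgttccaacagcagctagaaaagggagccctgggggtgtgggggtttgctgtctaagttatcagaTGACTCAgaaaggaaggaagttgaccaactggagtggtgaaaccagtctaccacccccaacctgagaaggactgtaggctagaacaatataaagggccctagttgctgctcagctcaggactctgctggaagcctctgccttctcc
Sprr1a: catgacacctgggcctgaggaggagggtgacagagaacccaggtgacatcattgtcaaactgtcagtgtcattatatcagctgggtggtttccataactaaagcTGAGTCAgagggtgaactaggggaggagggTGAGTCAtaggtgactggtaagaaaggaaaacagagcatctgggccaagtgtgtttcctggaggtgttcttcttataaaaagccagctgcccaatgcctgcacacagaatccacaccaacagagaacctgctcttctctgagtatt
The motif was searched on both strands in windows of 300 bases (250 before and 50 after the start). It is found in 10 of 38 windows of cornified envelope genes (26.3%) and in 2565 of 32851 windows of all genes (7.81%). Sprr and Lce genes are copies of each other, and a match in these letters is not a measured binding site.

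Other keratinocyte terminal genes followed the envelope. Of 9 genes of the suprabasin cluster and its calmodulin-like neighbours, 6 were higher and 0 lower (median 2.27). Sbsn (suprabasin) had 555, 679 and 482 CPM in granular and 99.4, 96.7 and 105 in spinous nLRC libraries, and 332, 362 and 330.3 in spinous LRC. The 3 groups do not overlap for Sbsn, and granular minus spinous nLRC was 2.51 ± 0.24 (SE; edgeR adjusted p = 3.14e-05). Dmkn (dermokine) and Calm4 (a calmodulin-like protein of suprabasal skin) rose by 2.27 ± 0.27 (SE; edgeR adjusted p = 8.62e-05) and 2.41 ± 0.40 (SE; edgeR adjusted p = 0.00089). Of 7 suprabasal keratins 6 were higher and 0 lower (median 2.33). Between granular and spinous LRC, 0 of these keratins passed (median 0.19). In the suprabasin cluster list, 1 gene was higher in that contrast and 0 lower (median 0.69). Krt78 (chromosome 15, 101946001 to 101954287) had 99.2, 104 and 111 CPM against 8.68, 3.90 and 11.7, a 13.0-fold difference of 3.70 ± 0.68 (SE; edgeR adjusted p = 0.00183), with 56.6, 67.8 and 68.4 in spinous LRC. Krt77, a suprabasal type II keratin, had 10758, 10048 and 9237 CPM against 2516, 1759 and 1681 and rose by 2.33 ± 0.47 (SE; edgeR adjusted p = 0.00334). Krt80 rose by 1.97 ± 0.31 (SE; edgeR adjusted p = 0.000655), and Krt23 by 3.11 ± 0.74 (SE; edgeR adjusted p = 0.0091).

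Cell junction genes differed in both directions between granular and spinous nLRC libraries. In granular minus spinous LRC, 0 of 16 desmosome and corneodesmosome genes passed (median 0.18). Of 14 tight junction genes, 1 was higher there and 0 lower (median 0.31). Among 16 desmosome and corneodesmosome genes, 9 were higher and 1 lower (median 1.23; 4 with limma on log2(TPM + 1)). Dsc1 (desmocollin 1, a suprabasal cadherin) had 183, 273 and 223 CPM against 29.7, 39.1 and 34.0, with a difference of 2.72 ± 0.47 (SE; edgeR adjusted p = 0.00114). Dsg1a and Dsg1b, near-identical desmoglein 1 copies whose reads may be shared, rose by 2.12 ± 0.28 (SE; edgeR adjusted p = 0.000202) and 2.03 ± 0.22 (SE; edgeR adjusted p = 4.36e-05). Dsg2, the desmoglein of lower layers, was the one that fell, from 106, 113 and 126 CPM in spinous nLRC to 30.4, 33.2 and 34.1 in granular libraries (-1.82 ± 0.26 SE, edgeR adjusted p = 0.000328). Of 14 tight junction genes 5 were higher and 1 lower (median 0.92; 2 with limma on log2(TPM + 1)). Cldn4 (claudin 4) had 47.3, 75.4 and 52.6 CPM in granular, 7.35, 6.81 and 7.46 in spinous nLRC and 7.96, 13.4 and 7.49 in spinous LRC libraries. Its granular values stand apart from both spinous groups, at 3.02 ± 0.44 (SE; edgeR adjusted p = 0.000367) and, for granular minus spinous LRC, 2.60 ± 0.43 (SE; edgeR adjusted p = 0.0081). Cgn (cingulin) rose by 2.06 ± 0.40 (SE; edgeR adjusted p = 0.00246) and Marveld2 (tricellulin) by 1.30 ± 0.27 (SE; edgeR adjusted p = 0.00359). The limma test on log2(TPM + 1) was not passed by Cgn and Marveld2 (adjusted p 0.0581 to 0.18).

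Adhesion to the basement membrane showed the reverse. Of 20 basal keratin and adhesion genes, 10 were lower in the granular layer and 0 higher (median -1.08; 6 without granular 1 or spinous nLRC 3). Against spinous LRC, 3 of them were lower in granular libraries and 0 higher (median -0.72). Itga3 (integrin α3) had 12.5, 27.1 and 16.3 CPM in granular, 104, 83.5 and 127 in spinous nLRC and 263, 369 and 278 in basal nLRC libraries. Spinous nLRC lie between the layers on either side, and granular minus spinous nLRC was -2.49 ± 0.33 (SE; edgeR adjusted p = 0.000183). Itgb1 (integrin β1) fell, at -2.03 ± 0.27 (SE; edgeR adjusted p = 0.00017), and so did Itgb4 (the hemidesmosome integrin), at -1.48 ± 0.24 (SE; edgeR adjusted p = 0.000665), and Lamb3 (a chain of laminin), at -2.22 ± 0.34 (SE; edgeR adjusted p = 0.000476).

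Barrier lipid genes were mostly higher in the granular layer. Of 29 tested, 18 were higher and 3 lower (median 1.64; 11 with limma on log2(TPM + 1)). Granular minus spinous LRC had 1 higher and 0 lower (median 0.18). Ugcg, which makes the glucosylceramides of lamellar bodies, had 57.2, 65.0 and 40.7 CPM against 11.8, 3.96 and 10.0, a difference of 2.66 ± 0.37 (SE; edgeR adjusted p = 0.000272). Elovl1, an elongase of very long fatty acids, was even within groups, with 70.0, 73.5 and 63.1 CPM against 25.0, 25.0 and 25.2. It rose by 1.46 ± 0.18 (SE; edgeR adjusted p = 0.000102), and stood above spinous LRC (43.0, 40.5 and 34.8 CPM) as well, by 0.80 ± 0.18 (SE; edgeR adjusted p = 0.0369). Elovl1 overlaps Cdc20, a mitosis gene on the other strand. The 3 lower genes were Psap (the saposin precursor, -1.26 ± 0.19 SE, edgeR adjusted p = 0.000484), Slc27a4 (a fatty acid transporter, -1.30 ± 0.25 SE, edgeR adjusted p = 0.00217) and Fa2h (fatty acid 2-hydroxylase, -2.83 ± 0.90 SE, edgeR adjusted p = 0.0452). Fa2h and Slc27a4 are named after their values were seen, to complete the 3. Fa2h had 26.8, 54.9 and 15.6 CPM in granular, 207, 332 and 151 in spinous nLRC and 5.59, 4.20 and 1.18 in spinous LRC libraries, highest in spinous nLRC and lowest in spinous LRC without overlap. The limma test on log2(TPM + 1) was not passed by Elovl1 and Psap (adjusted p 0.0519 to 0.0784).

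Serine proteases and their inhibitors, which set the pace of shedding, were higher in 12 of 21 and lower in 0 (median 1.62; 7 without spinous nLRC 2 and 7 with limma on log2(TPM + 1)). Compared with spinous LRC, 3 were higher in granular libraries and 0 lower (median 0.55). Spink5 (LEKTI, the kallikrein inhibitor) had 199, 209.6 and 236 CPM in granular, 35.3, 29.4 and 32.7 in spinous nLRC and 116, 138 and 126 in spinous LRC libraries. The replicates are tight and the groups do not overlap, with 2.72 ± 0.21 (SE; edgeR adjusted p = 6.78e-06). Tmprss11f, a membrane-bound serine protease, had 73.8, 73.1 and 97.0 CPM against 7.46, 5.95 and 6.53 and rose by 3.61 ± 0.70 (SE; edgeR adjusted p = 0.00247). Cst6 (cystatin M/E, an inhibitor of cathepsins) reached 1706, 2737 and 2189 CPM against 233, 389.6 and 497, a difference of 2.57 ± 0.53 (SE; edgeR adjusted p = 0.00363). Genes of nuclear and organelle breakdown were higher in 3 of 20 and lower in 1 (median 0.00; 1 without granular 3 or spinous nLRC 1, 5 without bulge 2 and 1 with limma on log2(TPM + 1)). Those higher were Casp14, Dnase1l2 (1.57 ± 0.46 SE, edgeR adjusted p = 0.0308) and Dnase2a (0.77 ± 0.20 SE, edgeR adjusted p = 0.0152), and the last 2 encode DNases. Lmnb1 (lamin B1) was the lower one, at -1.21 ± 0.36 (SE; edgeR adjusted p = 0.0307). A further DNase gene, Dnase1l3, was among the 12 largest rises, at 55.9, 66.6 and 53.3 CPM against 4.97, 4.77 and 3.99 (3.67 ± 0.71 SE, edgeR adjusted p = 0.00248). Calls that ended when 1 library was left out, with the edgeR adjusted p then, were those of Dnase1l2 without granular 2 or 3 or spinous nLRC 1 or 3 (0.0599 to 0.132), Dnase2a without granular 3 or spinous nLRC 1 or 2 (0.0663 to 0.092) and Lmnb1 without granular 1 or 3 or spinous nLRC 1, 2 or 3 (0.055 to 0.13). With limma on log2(TPM + 1), Dnase1l2 and Dnase2a did not pass (adjusted p 0.0677 to 0.325).

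Of 30 differentiation transcription factors 9 were higher and 1 lower (median 0.74; 17 without bulge 2 and 4 with limma on log2(TPM + 1)), with 6.67% of all genes tested higher and 7.51% lower. With spinous LRC in place of spinous nLRC, 1 was higher and 0 lower (median -0.01). Ovol1, a zinc finger factor that restrains proliferation, had 104, 169.6 and 162 CPM against 34.9, 38.1 and 39.1 and rose by 1.96 ± 0.31 (SE; edgeR adjusted p = 0.00056). Prdm1 (Blimp1, a repressor present in granular and sebaceous cells) was low but separate, with 8.79, 19.9 and 10.2 CPM in granular, 2.16, 2.29 and 2.88 in spinous nLRC and 2.43, 4.59 and 0.919 in spinous LRC libraries. It rose by 2.41 ± 0.48 (SE; edgeR adjusted p = 0.00298), and by 2.29 ± 0.48 (SE; edgeR adjusted p = 0.0291) over spinous LRC. The lower factor was Tfap2b (-0.90 ± 0.28 SE, edgeR adjusted p = 0.0409). Klf4 and Grhl1, both needed for the barrier, rose by 1.52 ± 0.33 (SE; edgeR adjusted p = 0.00469) and 1.44 ± 0.31 (SE; edgeR adjusted p = 0.00481). Of 18 immediate early genes 1 was higher and 0 lower (median 0.71; 0 without granular 2 or spinous nLRC 2, 4 with the replicate block and 0 with limma on log2(TPM + 1)), and this was Fosl1, at 1.91 ± 0.45 (SE; edgeR adjusted p = 0.00879). A count of 1 in 18 is not above the 6.67% of all genes higher. Of 18 antimicrobial and alarmin genes 3 were higher and 1 lower (median 1.18; 6 with the replicate block). They were Pglyrp4 (a peptidoglycan recognition protein, 2.77 ± 0.48 SE, edgeR adjusted p = 0.0012), Il1f5 and Il1rn (both receptor antagonists of the interleukin 1 family, 1.85 ± 0.46 SE, edgeR adjusted p = 0.0118 and 1.21 ± 0.26 SE, edgeR adjusted p = 0.00452), and, lower, Il33 (an alarmin of basal nuclei, -2.33 ± 0.48 SE, edgeR adjusted p = 0.00356). On leaving out 1 library (edgeR adjusted p in parentheses), the test was no longer passed by Fosl1 without granular 2 or spinous nLRC 2 (0.0558 to 0.061) and Il1f5 without granular 2 or spinous nLRC 2 (0.0656 to 0.0719). By limma on the TPM values, log2(TPM + 1), Klf4, Grhl1, Fosl1 and Il1rn did not pass (adjusted p 0.0657 to 0.266).

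**Figure D3:**
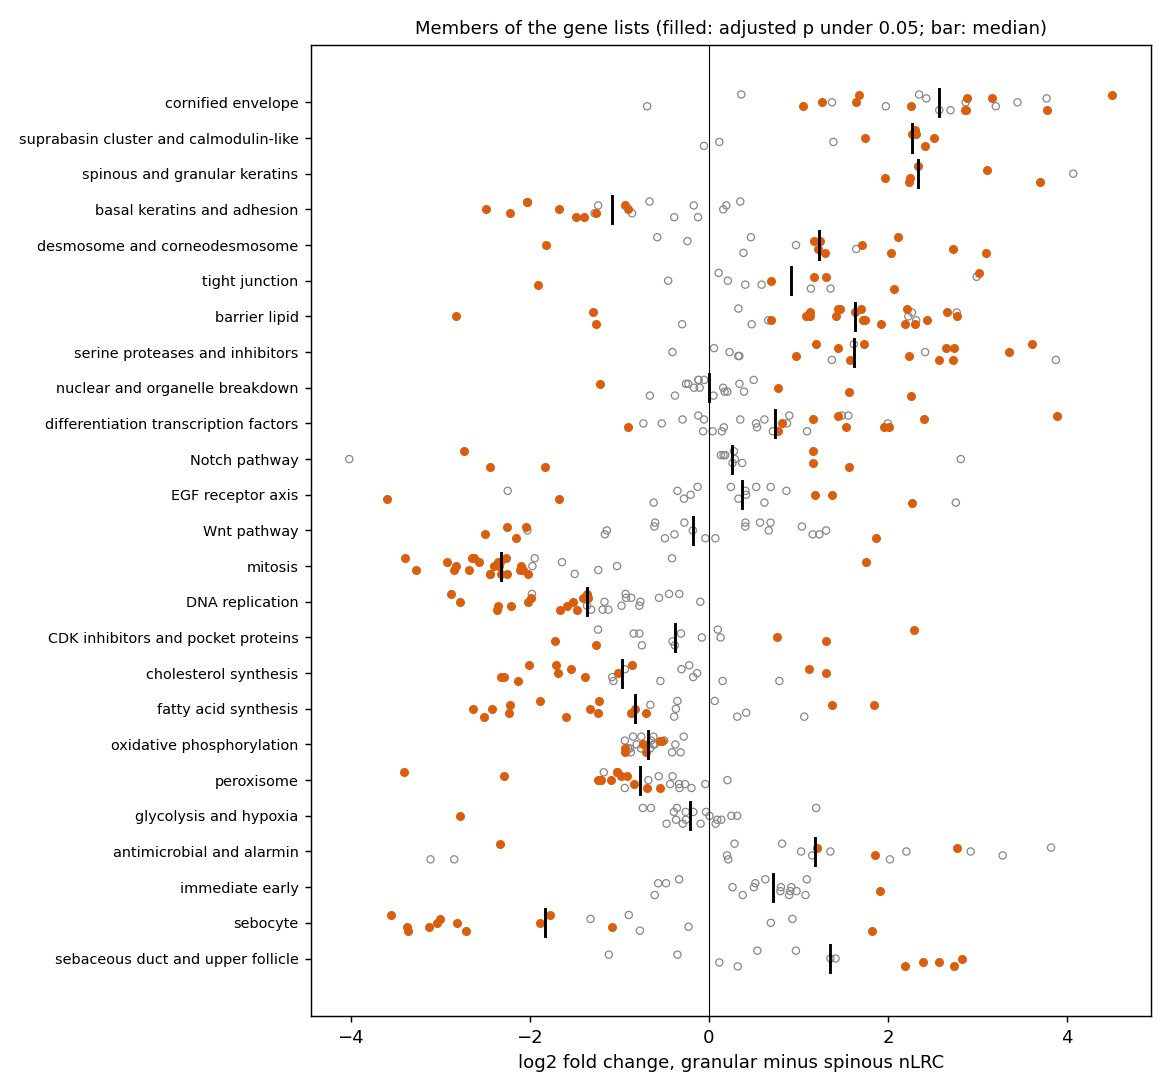
Log2 fold change, granular minus spinous nLRC, of each tested member of 25 gene lists, 1 point per gene, filled where the edgeR adjusted p was under 0.05, with a bar at the list's median. The medians of the envelope, suprabasal keratin, desmosome, tight junction and barrier lipid lists lie right of 0, and those of the basal adhesion, mitosis, lipid synthesis and sebocyte lists left of it.

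Most signalling genes did not pass the test, though the share called in each list below was above the 14.2% of all genes. Ligands and receptors were found among both the higher and the lower ones. In the Notch pathway, where ligands on one cell switch on receptors on the next and so start spinous differentiation, 3 of 15 genes were higher and 3 lower (median 0.26; 1 with limma on log2(TPM + 1)). The lower ones were the ligands Jag2 and Dll1 and the receptor-modifying Lfng. Jag2 (chromosome 12, 112907819 to 112929776) had 55.8, 72.3 and 64.3 CPM in granular, 452, 382 and 447 in spinous nLRC, 99.7, 111 and 162 in spinous LRC and 633, 703 and 628 in basal nLRC libraries. No granular value reaches any spinous nLRC value, and the difference was -2.74 ± 0.27 (SE; edgeR adjusted p = 3.14e-05). Dll1 fell, at -1.83 ± 0.31 (SE; edgeR adjusted p = 0.00112), and Lfng at -2.45 ± 0.45 (SE; edgeR adjusted p = 0.00187). The receptor Notch2 was higher, at 673, 778 and 644 CPM against 359.8, 268 and 310.2 (1.16 ± 0.20 SE, edgeR adjusted p = 0.000996), and so were Notch3 (1.57 ± 0.32 SE, edgeR adjusted p = 0.00373) and the feedback gene Nrarp (1.16 ± 0.30 SE, edgeR adjusted p = 0.0158), named after their values were seen. In the Wnt pathway 1 of 25 genes was higher and 4 lower (median -0.18). The ligand Wnt10a had 11.6, 15.8 and 17.5 CPM against 55.2, 59.3 and 70.0, with 153, 181 and 157 in basal nLRC, and fell, at -2.04 ± 0.24 (SE; edgeR adjusted p = 7.29e-05). Lgr6, an R-spondin receptor of basal and upper follicle cells, fell, at -2.15 ± 0.34 (SE; edgeR adjusted p = 0.000643), and so did the ligands Wnt6 and Wnt3a, at -2.50 ± 0.54 (SE; edgeR adjusted p = 0.00481) and -2.25 ± 0.56 (SE; edgeR adjusted p = 0.012). Wnt3a is named after its values were seen. Wnt11 was the one that rose, by 1.86 ± 0.43 (SE; edgeR adjusted p = 0.00771). Of 20 genes of the EGF receptor axis 3 were higher and 2 lower (median 0.37; 1 without granular 2 or spinous nLRC 1, 5 without bulge 2, 5 with the replicate block and 1 with limma on log2(TPM + 1)). The ligand Btc (betacellulin) and the receptor Erbb2 rose by 2.27 ± 0.60 (SE; edgeR adjusted p = 0.0175) and 1.18 ± 0.26 (SE; edgeR adjusted p = 0.00564), and the ligand Epgn (epigen) fell, at -1.68 ± 0.45 (SE; edgeR adjusted p = 0.02). The other lower gene was Dusp4, a phosphatase that turns off ERK. It had 4.16, 3.53 and 1.56 CPM in granular and 60.0, 22.7 and 30.4 in spinous nLRC libraries (-3.60 ± 0.85 SE, edgeR adjusted p = 0.00868). The edgeR adjusted p rose above 0.05, to the values in parentheses, for Wnt11 without spinous nLRC 2 (0.0571), Btc without granular 2 or spinous nLRC 1 or 3 (0.0668 to 0.088) and Epgn without granular 1 or spinous nLRC 3 (0.0633 to 0.0784). The limma test on log2(TPM + 1) was not passed by Dll1, Notch2 and Btc (adjusted p 0.0567 to 0.0968).

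Cell cycle genes were lower in granular than in spinous nLRC libraries. Between granular and spinous LRC, 0 genes of the mitosis and DNA replication lists passed (medians -0.05 and -0.43). Of 30 mitosis genes 22 were lower and 1 higher (median -2.33; 9 without granular 1, 10 without spinous nLRC 2 and 13 without granular 3). Mki67 (Ki-67) had 29.4, 44.4 and 28.0 CPM in granular and 148, 306 and 174 in spinous nLRC libraries, with spinous nLRC 2 the highest, and fell, at -2.63 ± 0.56 (SE; edgeR adjusted p = 0.00451). Spinous LRC held 13.6, 28.9 and 40.1 CPM and basal nLRC 113, 148 and 147, so spinous nLRC lie around or above the basal level and the granular group overlaps spinous LRC. Tpx2 and Kif11 (spindle assembly), Nuf2 (kinetochore) and Anln (cytokinesis) fell, at -2.40 ± 0.43 (SE; edgeR adjusted p = 0.0014), -2.27 ± 0.46 (SE; edgeR adjusted p = 0.00345), -3.27 ± 0.66 (SE; edgeR adjusted p = 0.00332) and -2.45 ± 0.42 (SE; edgeR adjusted p = 0.0012). Ttk, a spindle checkpoint kinase, was the one mitosis gene that rose, at 78.9, 60.4 and 61.0 CPM against 21.8, 20.6 and 16.9 (1.76 ± 0.38 SE, edgeR adjusted p = 0.00503). Its start lies next to that of Elovl4, a barrier elongase on the other strand that rose by 2.30 ± 0.41 (SE; edgeR adjusted p = 0.00133), and spinous LRC held 80.2, 68.0 and 53.4 CPM of Ttk and 349, 332 and 218 of Elovl4. Ttk and Elovl4 are named after their values were seen. Of 30 DNA replication genes 14 were lower and 0 higher (median -1.36; 8 without granular 1 or 3 or spinous nLRC 2 and 23 without bulge 2). Dut, which clears dUTP, Cdt1, which licenses origins, and the helicase subunit Mcm6 fell, at -2.88 ± 0.41 (SE; edgeR adjusted p = 0.000337), -2.78 ± 0.53 (SE; edgeR adjusted p = 0.00239) and -1.58 ± 0.31 (SE; edgeR adjusted p = 0.00271). Cdt1 overlaps another gene on its own strand, so its reads are uncertain. Of 15 CDK inhibitor, cyclin D and pocket protein genes 3 were higher and 2 lower (median -0.38; 1 with limma on log2(TPM + 1)). Cdkn2b (p15) had 35.8, 36.7 and 24.4 CPM against 8.46, 6.19 and 5.09 (2.29 ± 0.48 SE, edgeR adjusted p = 0.00437) and Cdkn1a (p21) 265, 306 and 267 against 106, 117 and 116 (1.31 ± 0.24 SE, edgeR adjusted p = 0.00195). The cyclins Ccnd2 and Ccnd1 fell, at -1.72 ± 0.25 (SE; edgeR adjusted p = 0.000337) and -1.26 ± 0.29 (SE; edgeR adjusted p = 0.0085). Calls that ended when 1 library was left out, with the edgeR adjusted p then, were those of Ccnd1 without granular 1 (0.0527). With limma on log2(TPM + 1), Cdkn1a and Ccnd1 did not pass (adjusted p 0.0524 to 0.0995).

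The promoter of Ccnb2 (cyclin B2) is shown as an example of the mitosis list, chosen after its values were seen. Capitals mark the letters of the CCAAT box (CCAAT) and of the cell cycle homology region (CHR, TTTGAA). Ccnb2 stood at 2.64, 4.36 and 2.34 CPM in granular and 9.73, 24.0 and 13.8 in spinous nLRC libraries (-2.34 ± 0.57 SE, edgeR adjusted p = 0.0106). The sequence is from RefSeq, build GRCm38.p6, minus strand, chr9:70421525-70421804, cut as above.
Ccnb2: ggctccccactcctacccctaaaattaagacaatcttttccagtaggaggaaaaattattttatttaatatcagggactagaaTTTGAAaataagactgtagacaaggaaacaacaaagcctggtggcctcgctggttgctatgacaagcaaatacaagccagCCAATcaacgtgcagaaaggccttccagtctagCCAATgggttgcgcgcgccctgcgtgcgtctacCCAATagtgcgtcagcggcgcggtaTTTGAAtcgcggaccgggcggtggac
CCAAT was found on either strand in 21 of 28 windows of mitosis genes (75%) and in 37.4% of all windows, and TTTGAA in 21 of 28 against 17.9%. Windows of cornified envelope genes held them in 31.6% and 7.89%. CCAAT was also frequent in other lists with lower genes, in 84.2% of cholesterol synthesis and 61.1% of sebocyte windows. TGANTCA, the AP-1 motif above, was in 0 of the 28 mitosis windows. Here too a match in letters, at any distance from the start, is not a measured binding site.

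Lipid synthesis ran opposite to barrier lipids between granular and spinous nLRC libraries. In granular minus spinous LRC, 0 of 22 cholesterol synthesis genes passed (median 0.41). Of 23 fatty acid genes, 1 was higher there and 0 lower (median 0.45). Of 22 cholesterol synthesis genes 10 were lower in the granular layer and 2 higher (median -0.97; 3 without spinous nLRC 2, 4 without granular 3, 6 without granular 1 and 5 with limma on log2(TPM + 1)). Lss, which closes the sterol ring system, had 39.7, 47.5 and 25.3 CPM in granular, 89.1, 181 and 90.1 in spinous nLRC and 29.3, 30.7 and 18.5 in spinous LRC libraries. Granular minus spinous nLRC was -1.68 ± 0.31 (SE; edgeR adjusted p = 0.00171). Nsdhl, a later step, had 21.6, 21.8 and 14.8 CPM in granular, 44.0, 74.7 and 33.3 in spinous nLRC and 18.3, 17.1 and 11.4 in spinous LRC libraries (-1.38 ± 0.28 SE, edgeR adjusted p = 0.00364). The 2 higher genes were Dhcr7 (1.30 ± 0.25 SE, edgeR adjusted p = 0.0021) and Sc5d (1.12 ± 0.31 SE, edgeR adjusted p = 0.0218), late enzymes of the same pathway whose product or substrate is 7-dehydrocholesterol. Of 23 fatty acid genes 13 were lower and 2 higher (median -0.83; 7 without granular 3 and 7 with limma on log2(TPM + 1)). Scd1, the main skin desaturase of sebum, had 631, 728 and 438 CPM in granular, 2531, 5315 and 2376 in spinous nLRC and 299, 314 and 249.99 in spinous LRC libraries. It fell, at -2.51 ± 0.55 (SE; edgeR adjusted p = 0.00547). Acss2 (acetyl-CoA synthetase), Lpin1 (lipin 1) and Acsl3 (long-chain acyl-CoA synthetase) fell, at -2.63 ± 0.41 (SE; edgeR adjusted p = 0.000545), -2.22 ± 0.41 (SE; edgeR adjusted p = 0.00168) and -1.89 ± 0.30 (SE; edgeR adjusted p = 0.000592). Acsl3 overlaps Utp14b on its own strand, so its reads are uncertain. Acsl1 and Elovl7 were the higher 2, at 1.84 ± 0.37 (SE; edgeR adjusted p = 0.00322) and 1.38 ± 0.36 (SE; edgeR adjusted p = 0.0169). Scd1, Sc5d, Acsl1 and Elovl7 are named after their values were seen. With limma on log2(TPM + 1), Lss and Scd1 did not pass (adjusted p 0.0506 to 0.0952).

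Peroxisome and oxidative phosphorylation genes that passed were lower in the granular layer, to be set against 7.51% of all genes tested lower. The glycolysis and hypoxia list, with 1 of 20 lower, did not exceed that share. Between granular and spinous LRC, 0 genes of the peroxisome, oxidative phosphorylation, and glycolysis and hypoxia lists passed. Of 24 peroxisome genes 12 were lower and 0 higher (median -0.77; 6 without granular 3 or spinous nLRC 2 and 2 with limma on log2(TPM + 1)). Acaa1a (peroxisomal thiolase) had 33.8, 33.9 and 28.1 CPM against 70.7, 73.4 and 82.9 (-1.24 ± 0.20 SE, edgeR adjusted p = 0.000641), and Ehhadh, Pex16 and Far1 fell, at -2.28 ± 0.39 (SE; edgeR adjusted p = 0.00105), -0.98 ± 0.18 (SE; edgeR adjusted p = 0.00185) and -1.02 ± 0.19 (SE; edgeR adjusted p = 0.00187). Of 24 oxidative phosphorylation genes 6 were lower and 0 higher (median -0.68; 0 without granular 1 or 2 or spinous nLRC 2, 2 without granular 3 or spinous nLRC 3, 15 without bulge 2 and 1 with limma on log2(TPM + 1)), with Atp5b and Uqcrc2 at -0.93 ± 0.26 (SE; edgeR adjusted p = 0.024) and -0.73 ± 0.22 (SE; edgeR adjusted p = 0.0308). Of 20 glycolysis and hypoxia genes 0 were higher and 1 lower (median -0.22; 0 without granular 2 or spinous nLRC 2 and 0 with limma on log2(TPM + 1)), which was Slc2a3 (a glucose transporter), at -2.78 ± 0.69 (SE; edgeR adjusted p = 0.0125). Acaa1a overlaps Myd88 and Pex16 overlaps Large2. On leaving out 1 library (edgeR adjusted p in parentheses), the test was no longer passed by Atp5b without granular 1, 2 or 3 or spinous nLRC 2 or 3 (0.0539 to 0.108), Uqcrc2 without granular 1 or 2 or spinous nLRC 2 (0.0886 to 0.137) and Slc2a3 without granular 2 or spinous nLRC 2 (0.0504 to 0.0524). By limma on the TPM values, log2(TPM + 1), Acaa1a, Pex16, Far1, Atp5b and Uqcrc2 did not pass (adjusted p 0.0618 to 0.143).

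The spinous nLRC libraries held high levels of sebocyte genes. Of the 20 markers listed, 18 were tested, and 11 were lower in the granular layer and 1 higher (median -1.83; 5 without granular 1 or 3 or spinous nLRC 2 and 6 without granular 2). The list's summed TPM (exon reads scaled by gene length) was 4256 to 6073 in spinous nLRC, 1697 to 2131 in granular, 1169 to 1562 in spinous LRC and 1085 to 2443 in basal nLRC libraries. The spinous nLRC range overlaps none of the other 3. Pparg, the master factor of sebocytes (chromosome 6, 115360951 to 115490399), had 236, 415 and 195 CPM in spinous nLRC and 24.6, 28.2 and 19.5 in granular libraries. It was 4.07, 1.10 and 0.591 in spinous LRC, 12.8, 32.4 and 19.6 in basal nLRC and 1.51, 1.21 and 2.50 in basal LRC libraries. Every spinous nLRC library is thus above every library of these groups, and granular minus spinous nLRC was -3.55 ± 0.81 (SE; edgeR adjusted p = 0.00744), or 11.7-fold lower. Mgst1 (a microsomal glutathione transferase used as a sebocyte marker, chromosome 6, 138140316 to 138156755) had 172, 318 and 150.2 CPM in spinous nLRC, 26.8, 26.5 and 8.60 in granular and 3.71, 1.55 and 0.525 in spinous LRC libraries (-3.37 ± 0.60 SE, edgeR adjusted p = 0.00141). Soat1, which esterifies cholesterol, had 179, 283 and 147 CPM in spinous nLRC, 29.1, 33.3 and 11.8 in granular and 3.22, 1.74 and 0.657 in spinous LRC libraries (-3.04 ± 0.70 SE, edgeR adjusted p = 0.00771). Plin2, the lipid droplet coat, had 392, 574 and 283 CPM in spinous nLRC, 73.6, 69.6 and 34.7 in granular and 25.0, 22.9 and 16.9 in spinous LRC libraries, and its difference of -2.81 ± 0.33 (SE; edgeR adjusted p = 8.36e-05) has the smallest adjusted p of the list. Far2, which makes fatty alcohols for wax esters, had 226, 501 and 189.9 CPM in spinous nLRC and 43.9, 49.9 and 20.5 in granular libraries (-3.002 ± 0.60 SE, edgeR adjusted p = 0.00306), and overlaps Ergic2 on the other strand.

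Further sebocyte genes were lower in the granular layer at lower levels. Mc5r, the melanocortin receptor of glands, had 18.3, 61.6 and 28.7 CPM in spinous nLRC against 1.83, 6.09 and 2.70 in granular libraries (-3.36 ± 0.85 SE, edgeR adjusted p = 0.0139). Elovl3, an elongase of sebum lipids, had 21.1, 37.3 and 27.0 CPM in spinous nLRC and 3.30, 5.64 and 0.782 in granular libraries (-3.13 ± 0.96 SE, edgeR adjusted p = 0.0388). Cidea, a lipid droplet protein, had 28.1, 65.0 and 39.7 CPM in spinous nLRC and 7.06, 10.1 and 3.06 in granular libraries (-2.71 ± 0.80 SE, edgeR adjusted p = 0.0318). Awat2, a wax synthase, and Apoc1 fell, at -1.77 ± 0.50 (SE; edgeR adjusted p = 0.026) and -1.08 ± 0.33 (SE; edgeR adjusted p = 0.0361). Prr15l, at 3.81, 2.57 and 3.41 CPM in granular and 1.33, 0.805 and 0.594 in spinous nLRC libraries, was the one that rose (1.82 ± 0.52 SE, edgeR adjusted p = 0.0274), and overlaps other genes. Awat1, a wax synthase, was low in both groups, at 0.332, 1.05 and 0.0848 CPM in spinous nLRC and 2.44, 0.385 and 0 in granular libraries. Plin5, a droplet protein, had 1.27, 0.557 and 0.848 CPM in spinous nLRC and 0.406, 0.641 and 0 in granular libraries, and Fabp4 was at or under 0.102 CPM in all 6. Scd3, a sebaceous desaturase and close copy of Scd1, had 4.97, 16.3 and 11.9 CPM in spinous nLRC, 11.9, 13.3 and 3.06 in granular and 11.4, 5.68 and 2.17 in spinous LRC libraries, with overlapping groups (-0.23 ± 0.81 SE, edgeR adjusted p = 0.896). Glul and Acsbg1 did not pass either (-0.89 ± 0.89 SE, edgeR adjusted p = 0.579 and -0.77 ± 0.48 SE, edgeR adjusted p = 0.323). Cyp4f18 had no read in spinous nLRC, and it and Scd4 were too low to test. The edgeR adjusted p rose above 0.05, to the values in parentheses, for Mc5r without granular 1 or 3 or spinous nLRC 2 (0.0629 to 0.103), Elovl3 without granular 1, 2 or 3 or spinous nLRC 1, 2 or 3 (0.0563 to 0.135), Cidea without granular 1, 2 or 3 or spinous nLRC 2 or 3 (0.0579 to 0.143), Awat2 without granular 1, 2 or 3 or spinous nLRC 1 or 2 (0.0683 to 0.105), Apoc1 without granular 1, 2 or 3 or spinous nLRC 2 or 3 (0.0675 to 0.124) and Prr15l without granular 1 or 3 or spinous nLRC 2 or 3 (0.0758 to 0.116). The limma test on log2(TPM + 1) was not passed by Cidea, Awat2 and Prr15l (adjusted p 0.0546 to 0.133).

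**Figure D4:**
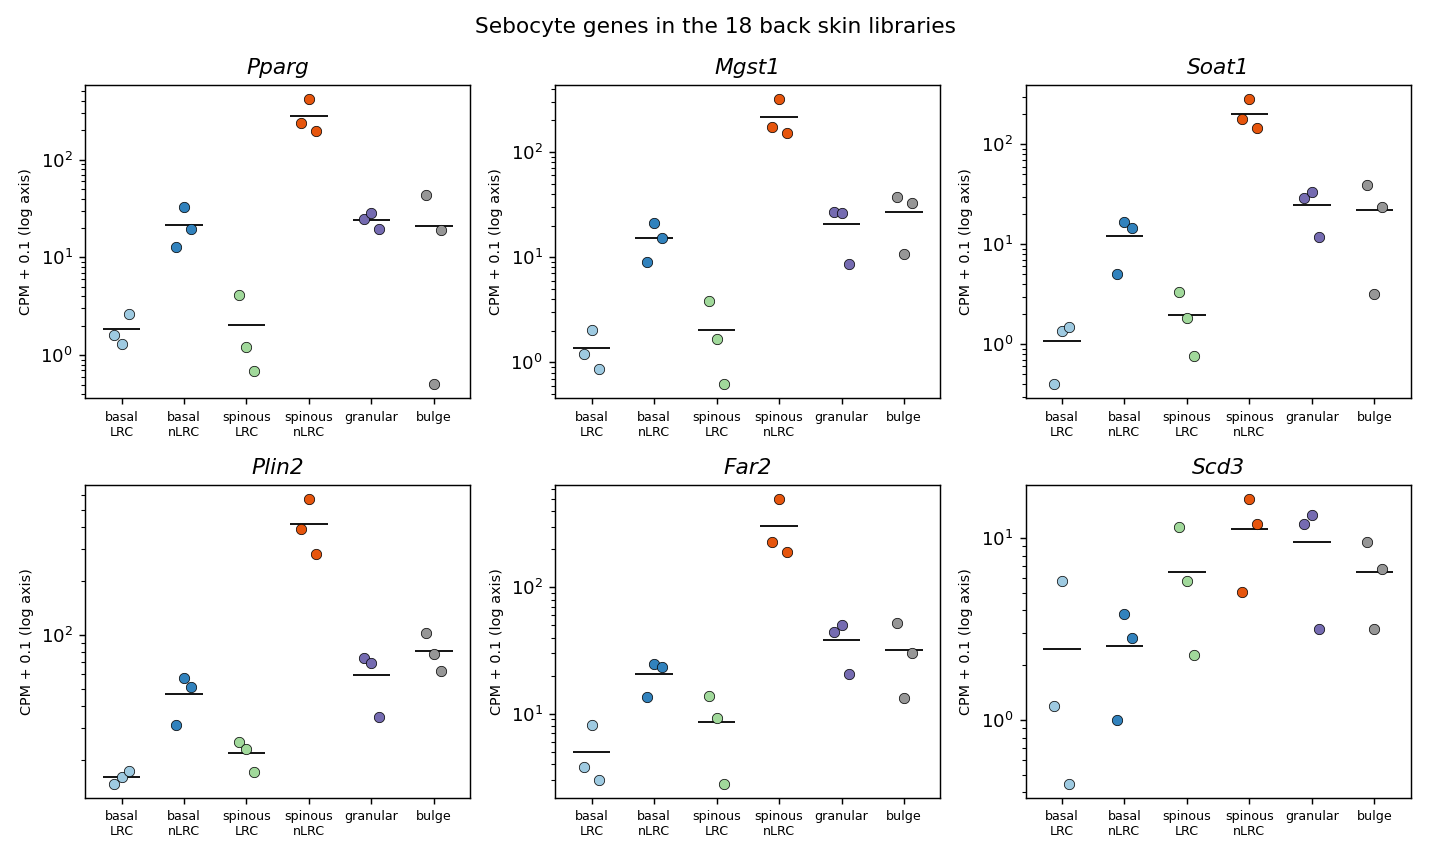
CPM + 0.1 (log axis) of Pparg, Mgst1, Soat1, Plin2, Far2 and Scd3 in the 18 back skin libraries, 1 point per library (n = 3 per group) with a bar at the group mean. In the first 5 genes all spinous nLRC libraries lie above all others and granular, basal nLRC and bulge libraries mostly above LRC libraries, while Scd3 overlaps between groups.

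The same genes in the other back skin contrasts place the sebocyte signal by sort. Contrasts share libraries, so they are set side by side only. Between spinous nLRC and spinous LRC, 11 sebocyte genes were higher in nLRC and 0 lower (median 2.97; 15.5% of genes were called, 8.63% higher and 6.88% lower). Between granular and spinous LRC, 3 were higher in the granular layer and 0 lower (median 1.64; 0.977% of genes were called, 0.796% higher and 0.181% lower). These 3 were Mgst1 (3.41 ± 0.64 SE, edgeR adjusted p = 0.016), Soat1 (3.71 ± 0.76 SE, edgeR adjusted p = 0.028) and Plin2 (1.46 ± 0.32 SE, edgeR adjusted p = 0.0378), so the granular libraries were not free of this signal. In spinous nLRC minus spinous LRC the values were 7.18 ± 0.99 (SE; edgeR adjusted p = 0.000175) for Pparg, 6.77 ± 0.72 (SE; edgeR adjusted p = 2.3e-05) for Mgst1 and 4.27 ± 0.35 (SE; edgeR adjusted p = 2.99e-06) for Plin2. The proportion of sebaceous cells in the sort was not measured, and in bulk libraries fewer cells of a type and less RNA per cell cannot be told apart. The sebocyte levels move with the lipid synthesis, peroxisome and cell cycle lists between these groups, and their part in those results was not tested. The lower Krt1 and Krt10 of spinous nLRC move with them too, as does the mitochondrial share of reads, and a part of sebaceous cells in these was likewise not tested.

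Genes of the sebaceous duct and upper follicle took another course. Of 13 tested, 5 were higher in the granular layer than in spinous nLRC and 0 lower (median 1.36; 3 without granular 2). The summed TPM was 16964 to 25973 in granular, 5158 to 6493 in spinous nLRC and 1344 to 4325 in spinous LRC libraries, without overlap between these groups. Krt79 (keratin 79, named after its values were seen) had 2235, 3330.3 and 1922 CPM in granular, 835, 1102 and 873 in spinous nLRC, 211, 621 and 155 in spinous LRC and 36.5, 63.5 and 79.0 in basal nLRC libraries. The granular and spinous nLRC groups do not overlap, but their difference did not pass (1.41 ± 0.48 SE, edgeR adjusted p = 0.0583, and 0.0417 with the replicate block). Granular minus spinous LRC did, at 2.92 ± 0.50 (SE; edgeR adjusted p = 0.00956), as did spinous nLRC minus spinous LRC, at 1.51 ± 0.48 (SE; edgeR adjusted p = 0.0418). Krt17, a keratin of follicle and duct, had 1894, 2801 and 1871 CPM against 359, 405 and 486 in spinous nLRC and 128, 409 and 165 in spinous LRC libraries (2.39 ± 0.49 SE, edgeR adjusted p = 0.00352). Klk10, a kallikrein whose locus overlaps another gene, and Teddm3 rose by 2.73 ± 0.64 (SE; edgeR adjusted p = 0.00859) and 2.82 ± 0.60 (SE; edgeR adjusted p = 0.00452). Gata6, a factor of the duct, did not pass between the groups, at 63.7, 91.1 and 75.8 CPM in granular and 41.5, 42.3 and 74.9 in spinous nLRC, against 8.26, 19.8 and 9.13 in spinous LRC libraries. Plet1 and Sox9 gave the same picture, with 0.32 and 0.12 for granular minus spinous nLRC, which did not pass. Gata6, Plet1 and Sox9 are named after their values were seen. Over the list, 8 genes were higher in spinous nLRC than in spinous LRC and 9 in granular than in spinous LRC, so both sorts compared here carry these markers. Cst6 and Krt17 are also granular or stress genes, and the part of duct cells in the granular results was not tested. Calls that ended when 1 library was left out, with the edgeR adjusted p then, were those of Klk10 without granular 2 (0.0518).

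**Figure D5:**
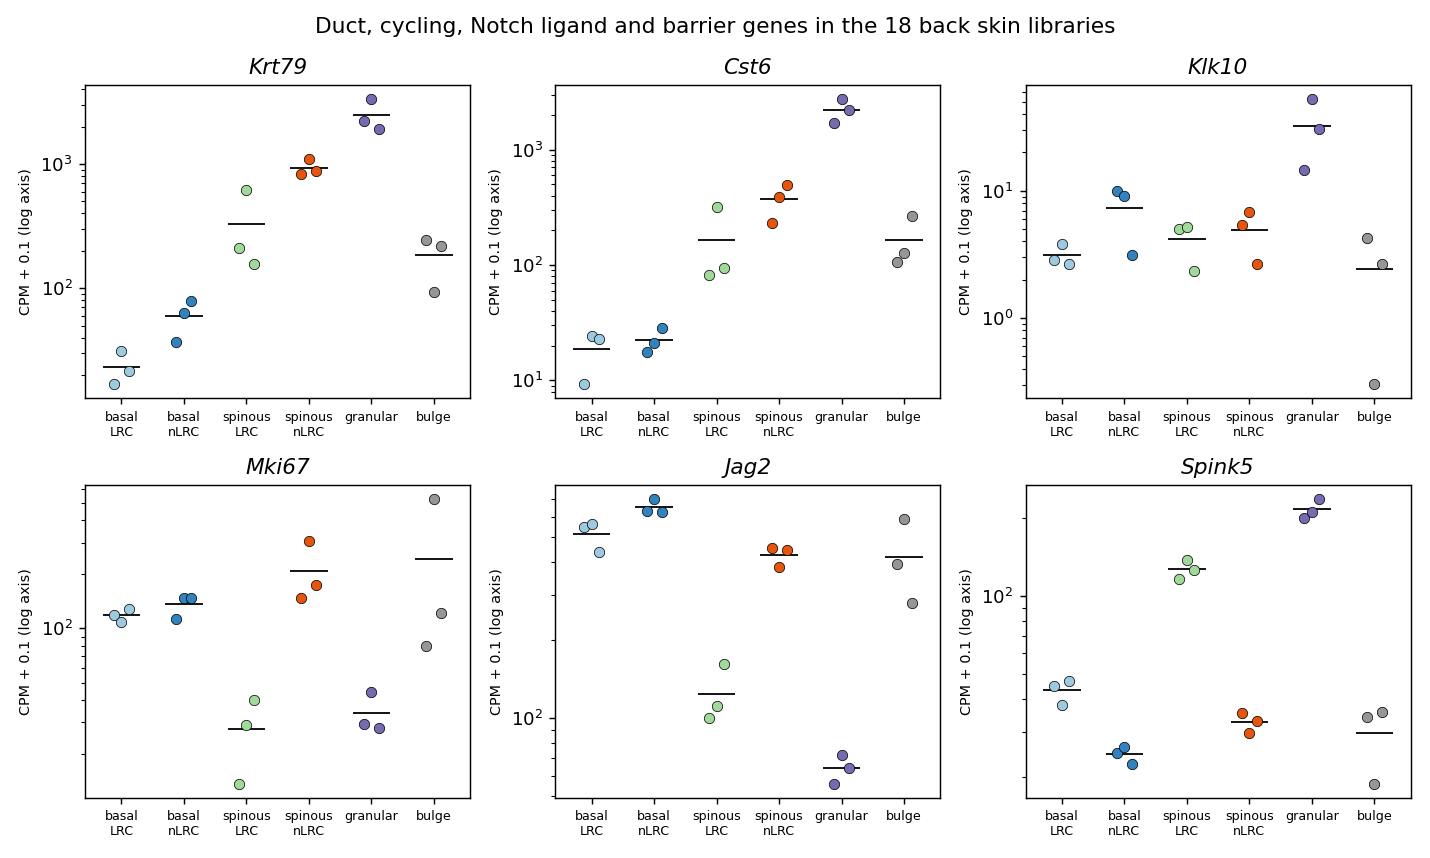
CPM + 0.1 (log axis) of Krt79, Cst6, Klk10, Mki67, Jag2 and Spink5 in the 18 back skin libraries, 1 point per library (n = 3 per group) with a bar at the group mean. Krt79, Cst6, Klk10 and Spink5 have their highest group mean in granular libraries, while Mki67 and Jag2 of the granular group lie below spinous nLRC.

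Markers of other cells passed the test in a part of a list or in none, to be set against 14.2% of all genes tested. The summed levels of several lists did not overlap between the groups. The part of other cells in the results above was not tested. Of 19 bulge genes 1 was higher (Lhx2, 2.13 ± 0.58 SE, edgeR adjusted p = 0.0206) and 5 lower, among them Col4a1, Postn and Ctgf (-1.97 ± 0.48 SE, edgeR adjusted p = 0.0105, -2.18 ± 0.46 SE, edgeR adjusted p = 0.00406 and -2.84 ± 0.70 SE, edgeR adjusted p = 0.012). The median was 0.12, and the number lower was 1 without granular 3, 2 without granular 1, 3 without spinous nLRC 2 and 2 with limma on log2(TPM + 1). In spinous nLRC minus spinous LRC, 8 bulge genes were higher and 0 lower (median 1.13), against 8.63% of all genes higher. Granular minus spinous LRC had 3 higher and 0 lower (median 0.66). The list had a summed TPM of 549.8 to 972 in granular, 738 to 926 in spinous nLRC and 1157 to 9202 in bulge libraries. Of 12 inner root sheath and hair shaft genes 2 were higher and 0 lower (median 1.56; 1 without granular 2 or 3 or spinous nLRC 2 or 3), Krt35 at 3.35, 7.37 and 5.61 against 0.497, 0.0619 and 0.17 CPM and Hoxc13 at 4.57, 8.27 and 3.91 against 0.718, 1.61 and 1.78 CPM (edgeR adjusted p = 0.0235 and 0.0069). The list summed to 882 to 1169 TPM in granular and 445 to 815 in spinous nLRC libraries, without overlap. Of 9 Langerhans and myeloid genes 2 were higher and 0 lower (median 0.95; 1 without granular 1, 2 or 3 or spinous nLRC 1, 2 or 3 and 1 with limma on log2(TPM + 1)), the epithelial marker Epcam (0.95 ± 0.22 SE, edgeR adjusted p = 0.00697) and Csf1r (3.06 ± 0.97 SE, edgeR adjusted p = 0.0439). Csf1r overlaps Hmgxb3 on the other strand. Cd207 (langerin) was at 2.64, 6.99 and 2.34 CPM in granular and 0.387, 0.124 and 0.933 in spinous nLRC libraries, which did not pass without the replicate block and did with it (edgeR adjusted p = 0.0355). The summed TPM of this list was 433 to 1088 in granular and 216 to 800.2 in spinous nLRC libraries. Of 5 T cell genes 0 were higher and 1 lower (median 1.40), Thy1 (-2.40 ± 0.39 SE, edgeR adjusted p = 0.000744), whose level in basal nLRC was 106, 124 and 117 CPM, while Cd3e was at 1.63, 6.09 and 1.14 in granular and 1.05, 2.11 and 0.339 in spinous nLRC. The T cell list summed to 13.9 to 48.7 TPM in granular and 80.6 to 85.8 in spinous nLRC libraries. Of 4 erythrocyte genes 2 were higher and 0 lower (median 1.64; 1 without granular 1 or 3 or spinous nLRC 1, 2 or 3), Hba-a2 (18.5, 13.5 and 14.6 against 2.27, 2.85 and 3.05 CPM) and its close copy Hba-a1 (3.45, 2.05 and 2.13 against 0.0553, 0 and 0.0848 CPM), with edgeR adjusted p = 0.00208 and 0.0248, and the list summed to 123 to 178 and 22.1 to 23.8 TPM. No gene passed among 8 melanocyte, 8 fibroblast, 7 endothelial, 4 adipocyte, 2 Merkel cell and 2 sweat and mucous gland genes. The summed TPM in granular and spinous nLRC libraries was 13.1 to 22.6 and 26.8 to 46.2 for melanocytes, 20.3 to 76.3 and 9.62 to 17.6 for fibroblasts and 1.72 to 2.38 and 0.63 to 2.28 for endothelium. For adipocytes, which share Pparg with sebocytes, it was 0.55 to 3.07 and 5.68 to 7.95, with Lep and Cfd at 0 in both groups and Adipoq at 0 in granular. Merkel cell genes summed to 0.05 to 1.88 and 2.48 to 4.36, and gland genes to 1.75 to 2.30 and 0.73 to 1.32. On leaving out 1 library (edgeR adjusted p in parentheses), the test was no longer passed by Lhx2 without granular 2 or spinous nLRC 1 or 2 (0.0873 to 0.147), Col4a1 without granular 1 or 3 (0.0546 to 0.059), Ctgf without granular 3 (0.0601), Krt35 without granular 2 or 3 or spinous nLRC 2 or 3 (0.0525 to 0.112), Csf1r without granular 1, 2 or 3 or spinous nLRC 1, 2 or 3 (0.0577 to 0.181) and Hba-a1 without granular 1 or 3 or spinous nLRC 1, 2 or 3 (0.0503 to 0.116). By limma on the TPM values, log2(TPM + 1), Lhx2, Postn, Epcam and Csf1r did not pass (adjusted p 0.0524 to 0.213).

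The largest single differences belonged to several of these groups or to none. Among the largest rises, Rbp2, a retinol-binding protein, had 33.4, 28.8 and 31.9 CPM against 3.48, 1.86 and 1.61 (3.74 ± 0.60 SE, edgeR adjusted p = 0.000665). Sytl2, a partner of Rab27 in secretion, had 11.2, 23.0 and 20.5 CPM in granular, 1.93, 0.867 and 1.44 in spinous nLRC and 0.911, 2.13 and 0.46 in spinous LRC libraries. It was higher than in both spinous groups, by 3.67 ± 0.59 (SE; edgeR adjusted p = 0.000694) and 3.95 ± 0.60 (SE; edgeR adjusted p = 0.00502). Zc3h12c, an RNase of the regnase family, had 16.2, 15.5 and 36.7 against 0.995, 2.17 and 3.05 (3.47 ± 0.51 SE, edgeR adjusted p = 0.000361). Kctd12, Gldc (the glycine cleavage decarboxylase) and Gpr37, a receptor of the G protein-coupled class, rose by 3.44 ± 0.52 (SE; edgeR adjusted p = 0.000499), 3.41 ± 0.67 (SE; edgeR adjusted p = 0.00274) and 3.31 ± 0.48 (SE; edgeR adjusted p = 0.000352). Skint5 and Skint10, butyrophilin-like genes of keratinocytes with close copies, rose by 3.29 ± 0.67 (SE; edgeR adjusted p = 0.0033) and 3.28 ± 0.58 (SE; edgeR adjusted p = 0.00141). By the same limit the largest fall was Igfbp2, an IGF-binding protein (chromosome 1, 72824503 to 72852474), with 2.69, 8.14 and 3.48 CPM in granular, 55.6, 98.0 and 52.5 in spinous nLRC and 0.243, 1.74 and 0.657 in spinous LRC libraries (-3.85 ± 0.71 SE, edgeR adjusted p = 0.00173, 14.4-fold lower). Tgm2 (tissue transglutaminase) had 1.83, 4.23 and 1.49 CPM in granular and 33.2, 36.3 and 20.9 in spinous nLRC libraries (-3.58 ± 0.62 SE, edgeR adjusted p = 0.00121), and overlaps Rprd1b on the other strand. Angptl4, a lipase inhibitor and PPAR target, had 5.99, 8.34 and 10.4 CPM against 74.6, 96.2 and 118 (-3.54 ± 0.57 SE, edgeR adjusted p = 0.000736). Clmp, an adhesion protein, had 14.9, 14.1 and 6.39 CPM against 163, 165 and 80.4 (-3.52 ± 0.73 SE, edgeR adjusted p = 0.00392). In all 3 genes the groups do not overlap, which the rule for naming the largest falls required. Oxtr, the oxytocin receptor, had 14.4, 11.7 and 2.56 CPM in granular, 179, 86.0 and 48.8 in spinous nLRC and 2.55, 0.129 and 0.131 in spinous LRC libraries (-3.44 ± 0.95 SE, edgeR adjusted p = 0.0219). Avpr1a, a vasopressin receptor that overlaps an antisense gene, had 13.3, 18.7 and 16.6 CPM in granular, 119, 215 and 222 in spinous nLRC and 3.71, 3.62 and 1.38 in spinous LRC libraries (-3.52 ± 0.75 SE, edgeR adjusted p = 0.00468). Tmem56, a membrane protein gene, showed the same order of groups, with 8.99, 12.2 and 2.98, 98.0, 113 and 52.4 and 1.28, 1.87 and 0.657 CPM (-3.44 ± 0.64 SE, edgeR adjusted p = 0.00187). Sparc (a matrix glycoprotein) and Cbr2 (a carbonyl reductase) differ from these in being high in basal nLRC as well, at 35.3, 66.7 and 18.3 and 57.2, 60.6 and 57.3 CPM, and fell, at -3.56 ± 0.64 (SE; edgeR adjusted p = 0.00151) and -3.44 ± 0.47 (SE; edgeR adjusted p = 0.000247). Another of the 12 largest falls, Fgf1, was low, at 0.508, 1.86 and 0.497 CPM in granular and 8.18, 19.1 and 6.27 in spinous nLRC libraries (-3.55 ± 0.91 SE, edgeR adjusted p = 0.0148). The edgeR adjusted p rose above 0.05, to the values in parentheses, for Oxtr without granular 1, 2 or 3 or spinous nLRC 1 (0.0532 to 0.0933) and Fgf1 without granular 1 or 3 or spinous nLRC 2 (0.0697 to 0.0765). The limma test on log2(TPM + 1) was not passed by Fgf1 (adjusted p 0.1).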

How the data were processed

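For every library the authors deposited 3 values per gene, a read count (total gene reads), TPM and RPKM, per the file headers. Cells were sorted into Trizol and a SMARTer Pico kit for stranded total RNA was used, per the labels' protocols, and mm10 is named in the submitters' processing notes. Aligner, counter and strand setting: not given in the sources used here. The deposited count holds intron and exon reads, while the deposited TPM and RPKM hold exon reads only, as seen in the values. RPKM served only for the intron share. Of 53715 names, 51843 matched 1 gene of GENCODE M21.

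Counts of the 18 back skin libraries (6 groups of 3) were filtered with filterByExpr (minimum count 10, total 15), scaled by TMM and tested with edgeR 4.0.16 (R 4.3.3) by a quasi-likelihood test on group means, Benjamini-Hochberg adjusted over 16574 genes. SE was derived from the fold change and its F statistic. Scripts were tested on simulated data. TPM was tested with limma 3.58.1 on log2(TPM + 1), for genes with TPM of at least 1 in 3 libraries. Alternatives were DESeq2 1.42.0, other scaling, filters, pseudocounts, fewer libraries and the replicate block. Same-numbered granular and spinous nLRC libraries deviated together (correlations 0.279, 0.151 and 0.238 over genes), and differently numbered ones gave -0.186 to -0.0541. Deviations were taken from the mean of each group of 3, so these correlations depend on each other and are weak grounds for pairing. The numbers were taken as pairs on the data alone, since no label says what they mark. These pairs enter only the fits with the replicate block. The main fit, which gave the edgeR values here unless the block is named, is unpaired.

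Named were the 12 largest rises and falls (average log2 CPM of at least 3, groups apart), up to 4 genes per list by p and all sebocyte genes. Members, 36 lists and tests were chosen with earlier results of these data known. Sequences are from RefSeq (GRCm38.p6). Some genes in the lists are not reported here.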

Additional observations from a re-analysis of the deposited data

How the results depend on the processing

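Of 2350 genes called (1105 higher in the granular layer, 1245 lower), the number was 3605 (1829 higher) with only the 6 libraries compared, 4558 (2177 higher, 2381 lower) without the 3 bulge libraries, 3319 (1685 higher) with DESeq2, 1151 (455 higher, 696 lower) with limma on log2(TPM + 1), 753 (252 higher, 501 lower) on log2(TPM + 0.1) and 948 (372 higher, 576 lower) on log2(TPM + 1) with no filter. Leaving out 1 library gave 1218 to 4043 calls, 498 to 2137 higher and 697 to 1906 lower. The replicate block gave 3216 calls (1577 higher, 1639 lower), and in only the 6 libraries, a fit added after seeing the data, 4675 (2398 higher, 2277 lower). Of the named genes the block ended no call for the granular against spinous nLRC contrast and added those of Cd207, Flg2, Krt79, Lor, Ndrg1 and Zfp36. Of 140 named genes past the test, 0 were counted as changing sign under any alternative run. Kept calls were 137 with DESeq2, 100 with limma on log2(TPM + 1) and 76 on log2(TPM + 0.1). With those below the threshold these do not reach 140, so not every gene is covered there. The number below the threshold was 39 with limma on log2(TPM + 1), 63 with each of the other 2 limma fits, 3 with no low-count filter, 1 with DESeq2 (Elovl3), 10 to 26 on leaving out a granular or spinous nLRC library, and 0 with median-of-ratios scaling, the block, only the 6 libraries, no bulge libraries or no bulge 2. The cause of these differences was not tested. With 3 libraries a group, a change near the spread between replicates is called under some fits only, as for Lor, and levels of a few reads, as in Awat1 or Fabp4, carry counting error that no interval here covers.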

Other observations

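The Skint genes are a cluster of butyrophilin-like genes on chromosome 4 whose first member selects epidermal γδ T cells. Most were higher in the granular layer than in spinous nLRC. This family was chosen after its values were seen, because 2 members were among the 12 largest rises. All 11 members in the tables were tested, and 10 were higher and 0 lower, against 6.67% of all genes tested higher. The median log2 fold change was 1.99, with a range of 1.38 to 3.30. This count and median include Skint5 and Skint10, the 2 members that led to the choice, so they are not a test of the family. Skint9 had 474, 297 and 358 CPM in granular and 67.6, 28.7 and 32.2 in spinous nLRC libraries, a difference of 3.13 ± 0.48 (SE; edgeR adjusted p = 0.000484). Skint3 was nearer between the groups, at 217, 199 and 169 against 70.5, 79.4 and 74.1 CPM (1.38 ± 0.21 SE, edgeR adjusted p = 0.000476). The one that missed the threshold was Skint11, at 1.68 ± 0.59 (SE; edgeR adjusted p = 0.0675). Between granular and spinous LRC, only Skint3 passed (1.64 ± 0.21 SE, edgeR adjusted p = 0.00125). Spinous LRC held 288, 224 and 226 CPM of Skint9, so spinous nLRC was the low group there (nLRC minus LRC -2.52 ± 0.46 SE, edgeR adjusted p = 0.00159). Skint7 had 50.4, 45.3 and 46.3 CPM in granular, 19.0, 10.2 and 12.6 in spinous nLRC and 106, 106 and 107 in spinous LRC libraries. Members are close copies that lie side by side, so they are not independent observations, and how the authors shared reads among them is not given in the sources used here.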
